A study of Mus musculus with 6 samples.

Results

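The Gimap genes encode GTPases of immunity-associated proteins, and all 8 annotated protein-coding Gimap genes of the mouse (Gimap1, Gimap3, Gimap4, Gimap5, Gimap6, Gimap7, Gimap8 and Gimap9) were followed here among the 49315 genes of a count table. They were chosen by their symbol, with earlier results of the comparison between skin and lymph node known, so their difference between the tissues is given as a description, and the calls that the fit over all genes made for them are printed without being read as a test. The table comes from bulk RNA-seq of Tregs, the Foxp3-expressing regulatory T cells, sorted as DAPI- CD45+ CD4+ Foxp3-EGFP+ cells, with 3 samples of skin and 3 of skin-draining lymph nodes (SDLNs). All mice were 9 days old and carried the Foxp3-GFP reporter, which marks cells that transcribe Foxp3, so that all 6 samples share this genotype. Cells from 3 mice were pooled into each sample according to the methods, so a sample is a pool and not an animal, and the labels give every sample the batch number 1. In the labels the tissue entry is skin for all 6 samples, so titles were used to tell skin from SDLN samples. Libraries carry the letters A, B and C in either tissue, as the columns of the table do.

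Gimap proteins share a GTP-binding domain of the AIG1 type, which is related to that of the septins, and they are made mainly in lymphocytes, where several of them sit on the membranes of organelles. Their genes lie side by side in mammalian genomes. The family is best known for keeping T cells alive outside the thymus, and loss of Gimap5 or Gimap1 in mice leaves few mature T cells in the periphery.

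Total counts were 3748669, 11741784 and 9033442 in skin libraries A, B and C and ran from 47243498 to 116158706 in SDLN Tregs. A gene with 3 counts or fewer in a library is said to be at the floor there, which corresponds to at most 0.800, 0.2555 and 0.332 CPM (counts-per-million, with the library total as the base) in skin libraries A, B and C and to at most 0.0635 CPM in any SDLN library. Skin Tregs held 2911, 5902 and 5187 genes over the floor and SDLN Tregs 17584 to 19318. Of the genes behind the sort, Ptprc, which encodes CD45, was over the floor in every library (log2 fold change -0.04, SE 0.553), while Foxp3 and Cd4 were not. Foxp3 had 0, 330 and 1 counts and Cd4 0, 1861 and 2 counts in skin libraries A, B and C. Of 16 T cell genes, 10, 15 and 15 were over the floor there and all 16 in each SDLN library. Of 9 Treg genes, Foxp3 included, 6, 6 and 5 were over the floor in these skin libraries and all 9 in each SDLN library. Il2ra, Ctla4, Ikzf2, Tnfrsf18 and Tnfrsf4 were over it in every skin library, while 2 of the 9 were at it in all of them. Floors and intervals cover counting error only, because reads copied from 1 molecule may have been counted separately, which is not stated.

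The 8 genes lie within 123.6 kb of chromosome 6 (48647234 to 48770851, GRCm38), in the order Gimap8, Gimap9, Gimap4, Gimap6, Gimap7, Gimap1, Gimap5 and Gimap3. Gimap6 and Gimap3 are on the minus strand and the other 6 on the plus strand. Gimap4 starts 5.434 kb after the end of Gimap9, and 9.521 kb separate it from Gimap6. The 250 bases upstream of the RefSeq start (GRCm38.p6) are shown for these 3 adjacent genes, because Gimap4 was at 0 counts in all skin libraries while the genes on either side of it were not. Capitals mark the motif matches described next.
Gimap9, chr6:48675885-48676134, plus strand: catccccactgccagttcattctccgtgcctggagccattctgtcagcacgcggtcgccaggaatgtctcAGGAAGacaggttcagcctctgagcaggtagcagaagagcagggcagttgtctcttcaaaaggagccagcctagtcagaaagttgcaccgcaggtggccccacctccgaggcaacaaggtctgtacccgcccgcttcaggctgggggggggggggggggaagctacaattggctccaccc
Gimap4, chr6:48684328-48684577, plus strand: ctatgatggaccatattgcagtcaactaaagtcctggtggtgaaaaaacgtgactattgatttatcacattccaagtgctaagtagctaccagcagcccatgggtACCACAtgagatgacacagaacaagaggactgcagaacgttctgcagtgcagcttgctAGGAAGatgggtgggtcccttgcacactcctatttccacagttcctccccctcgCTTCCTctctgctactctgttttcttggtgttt
Gimap6, chr6:48708245-48708494, minus strand: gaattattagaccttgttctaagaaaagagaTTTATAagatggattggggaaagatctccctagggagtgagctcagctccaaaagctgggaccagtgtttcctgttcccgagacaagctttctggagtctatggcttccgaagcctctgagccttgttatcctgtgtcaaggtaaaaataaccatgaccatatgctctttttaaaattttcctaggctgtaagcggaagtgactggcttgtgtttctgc

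Core motifs of factors known from T cells, and the TATA box, were searched on both strands in 250 bases upstream of every RefSeq start, 32817 windows in all, of which 9 belonged to the 8 Gimap genes (Gimap8 has 2 starts). AGGAAG, a form of the ETS motif, was found in 7 of the 9 Gimap windows and in 29.5% of all windows. Gimap9 held 1 match and Gimap4 held 2, while Gimap6 held none, and other forms of the motif were not searched. The RUNX core TGTGGT was found in 3 of 9 (Gimap4, Gimap7 and Gimap1) and in 14% of all, and the forkhead core GTAAACA in 1 of 9 (Gimap3) and in 3.16% of all. TATAAA, the TATA box, was found in 1 of 9 (Gimap6, on the strand opposite to the gene) and in 12.4% of all. No match overlapped another in these windows. The Gimap9 window had a GC content of 61.2% with 8 CpG dinucleotides, against 47.6% with 3 for Gimap4 and 43.6% with 3 for Gimap6, where the median of all windows was 52.4% and 6. A match is a stretch of letters and not a bound site, and no measurement of binding was analysed here.

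Gimap4, Gimap7 and Gimap8 did not rise above the floor in any skin library. Gimap4 (ENSMUSG00000054435, 48684549 to 48692060), which has been linked to the pace of T cell death, had 0, 0 and 0 counts in skin libraries A, B and C and 69141, 45466 and 17972 counts in SDLN libraries A, B and C. In SDLN Tregs this was 595.2, 624.5 and 380.4 CPM, or 533 ± 133 CPM (SD, n = 3). The lowest SDLN library was C, and it lay far above the limit that 0 counts allow in any skin library. Gimap7 (ENSMUSG00000043931, 48718621 to 48724636) had 0 counts in each skin library and 10307, 5910 and 4998 counts in SDLN libraries A, B and C (91.9 ± 12.6 CPM). Gimap8 (ENSMUSG00000064262, 48647234 to 48660875), the family member with several GTP-binding domains, had 0, 1 and 0 counts in skin and 13299, 9607 and 2872 counts in SDLN libraries A, B and C (102 ± 37.1 CPM). No fold against these skin values is reported.

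Gimap3 and Gimap5 were found in skin library B alone. Gimap5 (ENSMUSG00000043505, 48746197 to 48754210), a protein of the lysosome that lymphocytes need to survive, had 0, 1055 and 0 counts in skin libraries A, B and C and 12617, 7179 and 4651 counts in SDLN libraries A, B and C. At 89.85 CPM, skin library B was close to the SDLN libraries, which were at 108.6, 98.61 and 98.45 CPM (102 ± 5.83 CPM, SD, n = 3). Gimap3 (ENSMUSG00000039264, 48764464 to 48770851), a close relative of Gimap5 that resides in the outer mitochondrial membrane, had 0, 917 and 0 counts in skin and 96185, 62962 and 30573 counts in SDLN. Its level in skin library B was 78.1 CPM, which was 10.01% of the SDLN mean of 780 ± 117 CPM, whereas Gimap5 reached 88.18% of its SDLN mean in the same library. In this library Gimap5 was thus close to its SDLN level and Gimap3 was not.

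Gimap1, Gimap6 and Gimap9 were found in skin libraries B and C and at 0 counts in skin library A. Gimap1 (ENSMUSG00000090019, 48739054 to 48743795), needed for the upkeep of mature T and B cells, had 0, 2481 and 1576 counts in skin libraries A, B and C (0, 211.3 and 174.5 CPM) and 42863, 24046 and 19483 counts in SDLN libraries A, B and C (371 ± 41.1 CPM, SD, n = 3). Skin libraries B and C were at 57.02% and 47.08% of the SDLN mean. Gimap6 (ENSMUSG00000047867, 48701582 to 48708225), which has been tied to autophagy through its partner Gabarapl2, had 0, 2150 and 475 counts in skin (0, 183.1 and 52.58 CPM) and 72008, 38391 and 27431 counts in SDLN (576 ± 46.5 CPM). Its skin values in B and C were 31.79% and 9.129% of the SDLN mean. Gimap9 (ENSMUSG00000051124, 48676129 to 48679114) had 0, 994 and 163 counts in skin (0, 84.65 and 18.04 CPM) and 27320, 15307 and 13532 counts in SDLN (244 ± 38.8 CPM), so B and C were at 34.7% and 7.396% of the SDLN mean. Among the 5 genes found in skin, the percentage of the SDLN mean was lower in C than in B for each.

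**Figure D1:**
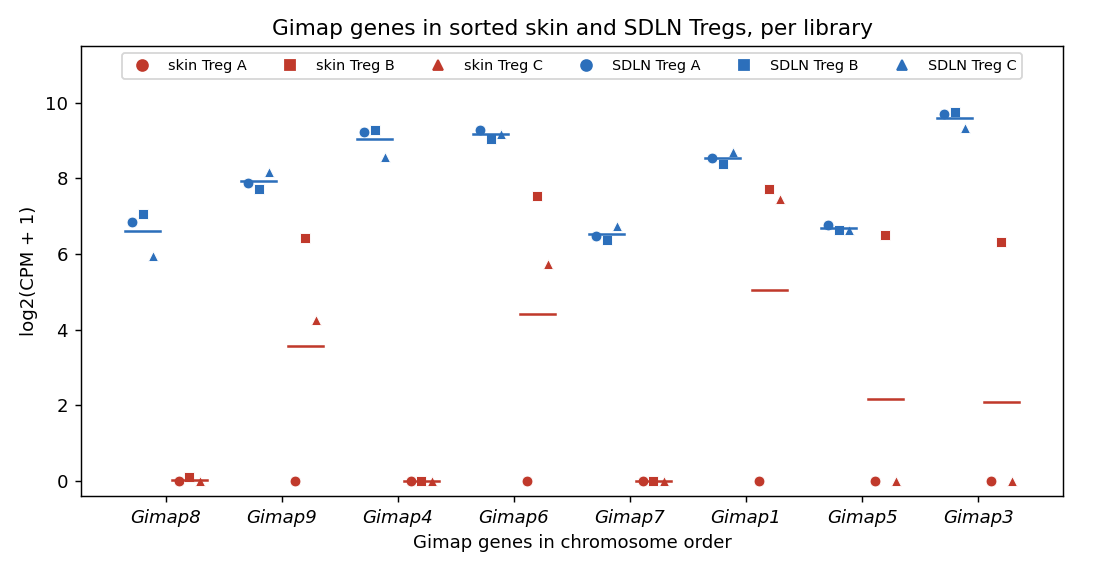
Level of each Gimap gene as log2(CPM + 1) in 3 skin Treg (red) and 3 SDLN Treg (blue) libraries, in chromosome order; circles, squares and triangles are libraries A, B and C, and lines are means of the 3 log2 values. All SDLN points lie above all skin points for each gene, the skin circles (library A) all lie at 0, and Gimap4 and Gimap7 have all 3 skin points at 0.

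Of the 24 values that 8 genes give in 3 skin libraries, 15 were at 0 counts, 1 was at 1 to 3 counts, 0 were at 4 to 99 counts and 8 were at 100 counts or more, from 163 to 2481. Values between were uncommon for other genes too. In the 3 classes of SDLN abundance described next, 0.825% to 7.61% of genes had 4 to 99 counts in a given skin library. Skin libraries A, B and C thus had 0, 5 and 3 of the 8 genes over the floor, and each SDLN library had 8. Fewer cells with a transcript, less of it per cell and transcripts missed by a library cannot be told apart in such bulk samples. Over all genes, skin libraries A, B and C held 2911, 5902 and 5187 genes over the floor and SDLN libraries 17584 to 19318. The part of missed transcripts in the 0 counts was not tested.

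For all 8 genes, every SDLN library was higher than every skin library, which was so for 53.6% of the 13572 genes tested, and for none of them was every skin library higher, which was so for 2.39%. In the edgeR quasi-likelihood fit over these genes, 3 of the 8 were called higher in SDLN Tregs at an adjusted p under 0.05 (Gimap4, Gimap7 and Gimap8), against 45.3% of all genes tested, and 0 were called higher in skin Tregs, against 1.04%. In either direction these were 3 of 8 and 46.3%. At an unadjusted p under 0.05 the count was also 3. Nothing is read from these counts, since the genes were chosen with the same comparison known. The 3 called genes are the ones with 3 counts or fewer in each skin library. The other 5, which had high counts in 1 or 2 skin libraries and 0 in the rest, had log2 fold changes (skin minus SDLN) from -4.84 (SE 2.94, Gimap3) to -1.35 (SE 2.04, Gimap1), with standard errors of at least 2.04. The median log2 fold change of the 8 genes was -3.80, and -2.21 over all genes tested. With genes that were at the floor in every skin library set at the bound that 3 counts per library give, these medians were -3.80 and -1.29.

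Among genes of like abundance in SDLN Tregs, 0 counts in all skin libraries were rare at the level of Gimap4 and more common at that of Gimap7. In the class with an SDLN mean of 300 to 1000 CPM, which holds 485 genes, 67.22% were over the floor in all 3 skin libraries, 27.63% in 2, 4.124% in 1 and 1.031% in none. Gimap1 and Gimap6 were among those in 2, Gimap3 among those in 1 and Gimap4 among those in none. Of the 5 genes over the floor in none, 2 had 0 counts throughout (0.412% of the class), Gimap4 and Izumo1r, the latter named after its values were seen. Of the 1760 genes at 100 to 300 CPM, 8.466% were over the floor in no skin library, as Gimap8 was (3.693% had 0 counts throughout), 23.41% in 1, as Gimap5 was, and 40.0% in 2, as Gimap9 was. Of the 3649 genes at 30 to 100 CPM, 28.72% were over the floor in none, as Gimap7 was, and 18.31% had 0 counts throughout, as Gimap7 did. These shares describe how the skin libraries cover genes of a given level and are not a test of any Gimap gene.

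**Figure D2:**
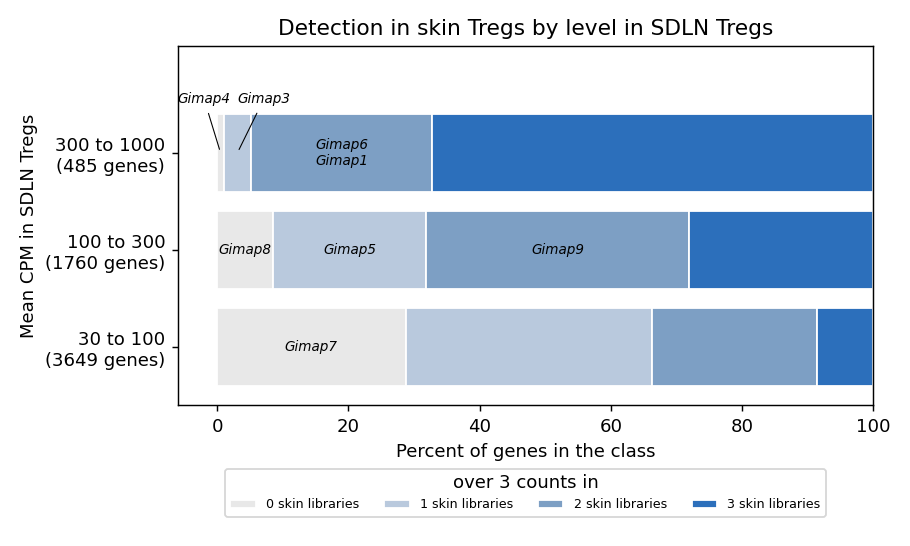
Percent of genes (x axis) over 3 counts in 0, 1, 2 or 3 skin libraries (grey to dark blue), in 3 classes of mean CPM in SDLN Tregs (rows), with the Gimap genes written in the part of the bar they belong to. Gimap4 falls in the smallest part of the top bar (1.031% of 485 genes), while Gimap7 falls in a part that holds 28.72% of 3649 genes.

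Gimap4 was set against the genes next to it on the chromosome. In skin library B, Gimap9 on one side had 994 counts and Gimap6 on the other 2150, with 0 for Gimap4 between them, and in skin library C the counts were 163, 475 and 0. Per kb of exon (RPKM, CPM divided by the exon length in kb), Gimap4 was at 324.0, 340.0 and 207.1 in SDLN libraries A, B and C and so above both neighbours in each of them, since Gimap9 was at 128.1 to 174.4 and Gimap6 at 150.8 to 177.3. As a share of all Gimap counts, Gimap4 made up 20.11%, 21.77% and 14.79% in SDLN libraries A, B and C. Its share was 0 of 7598 counts in skin library B, which allows up to 0.0395%, and 0 of 2214 in skin library C, which allows up to 0.136%. The next gene along, Gimap7, also had 0 counts in these libraries, and the one after it, Gimap1, was the highest of the family per kb of exon in both (68.76 and 56.77 RPKM).

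**Figure D3:**
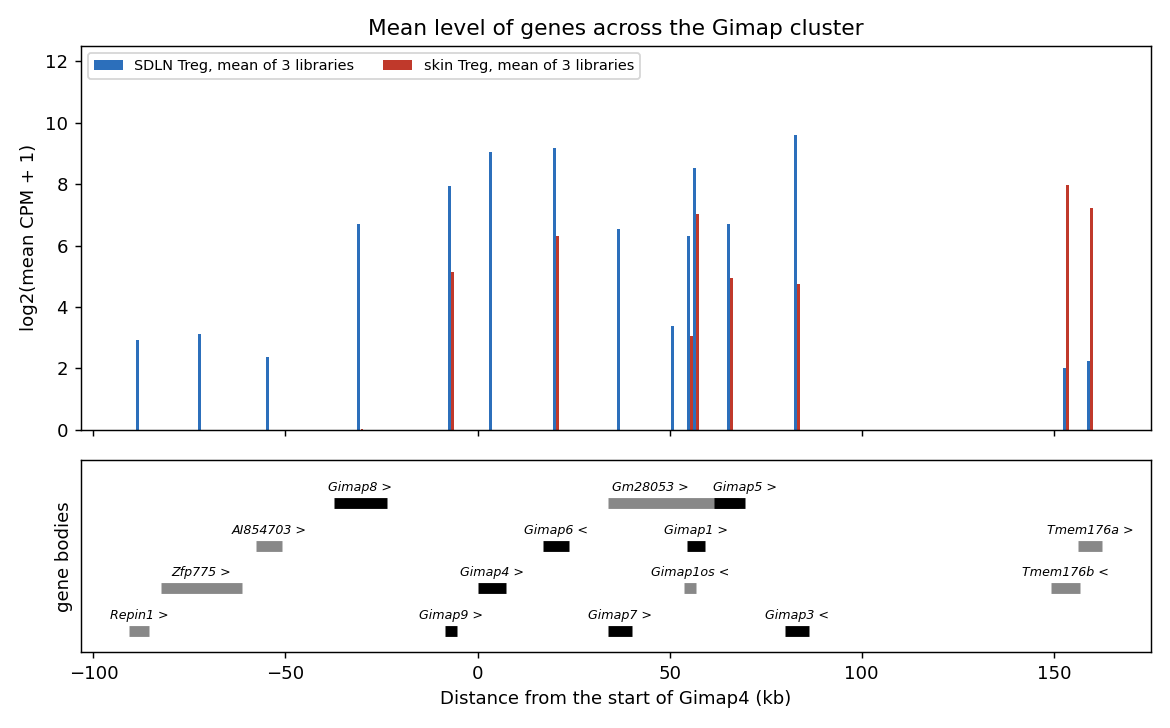
Top, log2(mean CPM + 1) in SDLN Tregs (blue) and skin Tregs (red), each over 3 libraries, for genes with a mean over 1 CPM in either group, by distance from the start of Gimap4 in kb; bottom, the gene bodies, with Gimap family members in black, other genes in grey and the strand as an arrowhead. Gimap4, Gimap7 and Gimap8 have an SDLN bar with no visible skin bar, and Tmem176b and Tmem176a at the right end have the higher bar in skin.

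The shares of some members differed between skin libraries B and C and the SDLN libraries. Skin library A had no Gimap count. The intervals cover counting error within a library and not the spread between pools. Gimap1 gave 32.65% of all Gimap counts in skin library B (exact binomial 95% interval 31.6 to 33.7%) and 71.18% in skin library C (69.3 to 73.1%), against 12.47%, 11.51% and 16.03% in SDLN libraries A, B and C. Gimap3, which gave the most counts in each SDLN library (27.98%, 30.14% and 25.16%), gave 12.07% in skin library B (11.3 to 12.8%) and 0 of 2214 counts in skin library C. The shares of Gimap6 overlapped between the tissues, at 28.3% and 21.45% in skin libraries B and C and 18.38% to 22.57% in SDLN Tregs. Summed over the 8 genes, the level was 0, 647.1 and 245.1 CPM in skin libraries A, B and C and 2959, 2869 and 2572 CPM in SDLN libraries A, B and C. This gave 297 ± 327 CPM for skin against 2800 ± 203 CPM for SDLN (SD, n = 3 each), and the skin mean was 10.62% of the SDLN mean, 4.376% without skin library B and 15.93% without skin library A.

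The sum was also set against the transcripts of T cells in the same library, over 16 T cell genes (among them Cd3d, Cd3e, Cd3g, Lck and Cd2). These genes summed to 4944, 8215 and 8151 CPM in skin libraries A, B and C and to 11830 to 14110 CPM in SDLN Tregs. The Gimap sum was 0%, 7.877% and 3.007% of the T cell sum in skin libraries A, B and C and 18.23% to 24.25% in SDLN Tregs, with no overlap between the groups. Of the 16 T cell genes, 1 was called, Trbc2, which was higher in SDLN (edgeR adjusted p 0.0307), where 45.3% of all tested genes were called in that direction. Their median log2 fold change was -0.90, and -2.21 over all tested genes. With genes at the floor in every skin library set at their bound, these were -0.90 and -1.29.

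Sums of genes listed for other cell types differed between the tissues as well, which does not show that those cells were present. Of 15 myeloid genes, 13 were called higher in skin Tregs and 1, Itgam, which had 0 counts in skin, in SDLN Tregs, beside 1.04% and 45.3% of all genes tested. Their sum was 33640 to 56930 CPM in skin and 695.2 to 984.3 CPM in SDLN, so it was highest in skin library A (56930 CPM), the library with 0 counts for all Gimap genes. B cells also make Gimap proteins, and 6 of 7 tested B cell genes were called higher in SDLN (45.3% of all genes), with a sum of 0 to 2.66 CPM in skin and 65.3 to 96.8 CPM in SDLN. Among them, Ms4a1, Cd79a, Pax5, Cd22 and Blk had 0 counts in all skin libraries. The CD8 and NK cell list had 3 of 6 tested genes called higher in SDLN (Cd8a, Cd8b1 and Prf1, all at 0 in skin) and 2 in skin (Nkg7 and Gzmb), where 45.3% and 1.04% of all genes were, with sums of 1112 to 1403 CPM in skin and 265.2 to 295.6 CPM in SDLN. Endothelial genes summed to 0.511 to 25.9 CPM in skin and 139 to 173 CPM in SDLN. Nearly all of the SDLN sum was Pecam1, the only tested gene of this list, which was not called (edgeR adjusted p 0.0934). The highest skin sum was Kdr alone (97 counts in library A). The 6 keratinocyte genes had 0 counts in skin. The part of these cells in the Gimap levels was not tested.

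Within SDLN Tregs the family covered a range of levels. Per kb of exon, Gimap3 was at 303 ± 45.2 and Gimap4 at 290 ± 72.6, followed by Gimap6 at 165 ± 13.3, Gimap9 at 149 ± 23.7, Gimap1 at 121 ± 13.4, Gimap7 at 39.5 ± 5.42, Gimap8 at 27.7 ± 10.02 and Gimap5 at 24.6 ± 1.404 (SD, n = 3 each). Over all exon bases, the libraries of neighbours in the order did not overlap after Gimap4 and after Gimap1. The ranges of Gimap3 and Gimap4 overlapped, and Gimap3 was the higher in 1 of 3 libraries. Ranges also overlapped for Gimap6 and Gimap9, Gimap7 and Gimap8, and Gimap8 and Gimap5, with the first of each pair higher in 2 of 3 libraries, and for Gimap9 and Gimap1, where Gimap9 was higher in 3 of 3. If reads on exon bases shared with another gene were not counted, the Gimap1 counts belong to the unshared length alone, and dividing them by it gives 188.5 RPKM. Whether they were counted is not stated, so the place of Gimap1 relative to Gimap4, Gimap6 and Gimap9 is uncertain.

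**Figure D4:**
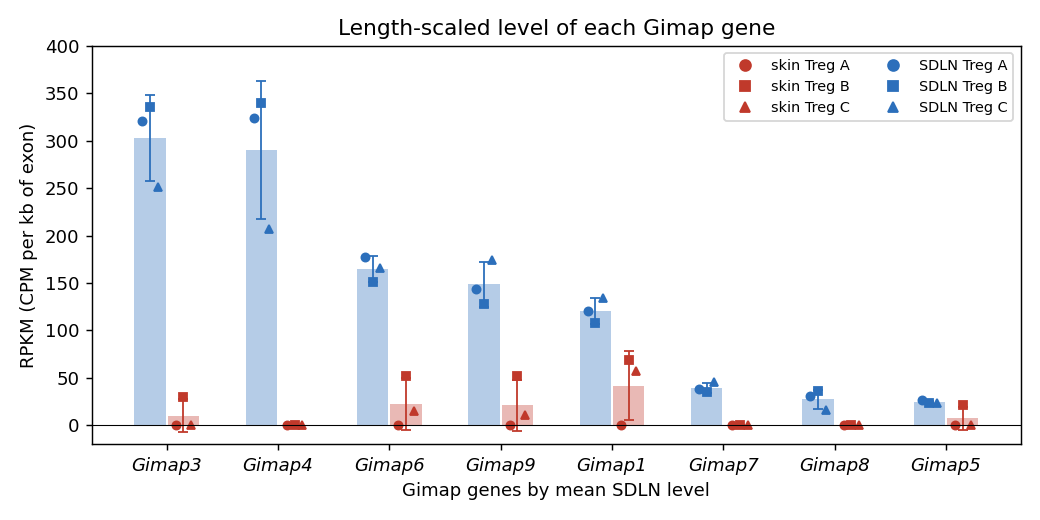
RPKM (CPM per kb of exon) of each Gimap gene in SDLN Tregs (blue) and skin Tregs (red), ordered by the SDLN mean; bars are means of 3 libraries, error bars are SD (n = 3) and points are libraries A (circle), B (square) and C (triangle). Gimap3 and Gimap4 lie highest in SDLN Tregs with overlapping points, and Gimap7, Gimap8 and Gimap5 lie lowest.

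The SDLN libraries differed among themselves for some members. In SDLN library C, Gimap8 was at 49.33%, Gimap4 at 62.37% and Gimap3 at 76.45% of the mean of A and B, in CPM. Gimap5 (95.01%) and Gimap6 (101.2%) were near that mean, and Gimap1 (117.9%), Gimap7 (124.5%) and Gimap9 (128.6%) were above it. The sum was at 88.26%. For the 485 genes at 300 to 1000 CPM the median was 97.8%, with quartiles of 77.67% and 132.6%, so Gimap4 lay below the lower quartile of its class, and 8.866% of the class lay at or below it. Foxp3 was at 30.99% in this library, Nt5e at 51.04% and Tcf7 at 129.8%. The coefficient of variation over the SDLN libraries was lowest for Gimap5 (5.72%) and Gimap6 (8.07%) and highest for Gimap8 (36.2%) and Gimap4 (24.99%), where that of the sum was 7.24%.

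The genes most like Gimap4 over the 6 libraries were found by the Euclidean distance of log2(CPM + 1) among protein-coding genes, which is a description over 6 points that share libraries and depth. Of the 5 nearest genes, 4 are described. Nt5e, which encodes the ectoenzyme CD73, was at a distance of 0.851 with 0, 0 and 4 counts in skin and an SDLN level of 452 ± 190 CPM (SD, n = 3). Izumo1r, which encodes folate receptor 4 of Tregs, was at 0.909 with 0 counts in each skin library and 583 ± 103 CPM in SDLN. Lef1, a transcription factor of naive T cells, was at 1.29 with 0, 2 and 4 counts in skin, and Ddb1, a DNA damage binding protein, was at 1.31 with 0, 4 and 5. The other Gimap genes were farther away. Gimap8 ranked 198 (distance 4.18) and Gimap7 246 (4.41), while Gimap3 ranked 1050, Gimap5 2124, Gimap9 2447, Gimap6 4505 and Gimap1 6370 (10.8).

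Some Gimap transcripts overlap other genes, which bears on how their reads were assigned. Gimap1 shares 36.02% of its 3073 exon bases with the antisense gene Gimap1os (48738346 to 48741444, minus strand) or with Gm28053, a readthrough gene on the plus strand that spans Gimap7 to Gimap5 (48718607 to 48752644). Gimap1os had 0, 0 and 199 counts in skin libraries A, B and C and 9618, 3385 and 5102 counts in SDLN libraries A, B and C (79.1 ± 30.9 CPM). Gm28053 had 0 counts in each skin library and 893, 651 and 546 counts in SDLN (9.40 ± 1.97 CPM). The strand setting of the counting is not stated, so reads of Gimap1 and Gimap1os cannot be told apart, and values of Gimap1 are uncertain to that extent. Gimap5 and Gimap7 share 3.688% and 3.484% of their exon bases with another gene, and Gimap3, Gimap4, Gimap6, Gimap8 and Gimap9 share none. Identical stretches of 100 bases were counted in the annotated transcripts as well. Of those of Gimap1, 31.4% also occurred in Gimap1os or Gm28053, of those of Gimap5, 2.26% in Gimap3 or Gm28053, and of those of Gimap3, 1.65% in Gimap5. None of those of Gimap4, Gimap6, Gimap7, Gimap8 or Gimap9 occurred in another gene, and stretches that differ by single bases were not searched.

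Beyond the family, 18 protein-coding genes lie within 250 kb of either end of the cluster or inside it. All but 3 of them were at the floor in every skin library (15 of 18), and 10 were over the floor in all SDLN libraries. Those on the Gimap8 side were far lower than the family in SDLN Tregs, the highest being Lrrc61 at 23.8 ± 7.53 CPM. Of 10 genes tested, 8 were called higher in SDLN and 1 in skin, where 45.3% and 1.04% of all tested genes were. The skin call was Tmem176a, which encodes a membrane protein found in dendritic cells and macrophages. It had 872, 1874 and 466 counts in skin libraries A, B and C and 568, 134 and 213 counts in SDLN (148 ± 91.1 and 3.75 ± 1.66 CPM; log2 fold change 5.10, SE 1.42, edgeR adjusted p 0.0270). Its partner Tmem176b had 2200, 1913 and 16 counts in skin and 362, 197 and 157 in SDLN, overlapped between the groups and did not pass (log2 fold change 5.98, SE 2.06, edgeR adjusted p 0.0620). Of these neighbours, the ones with the higher level in skin were thus on the Gimap3 side of the cluster, and both had their highest CPM in skin library A, where no Gimap count was found.

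Genes of the pathways that the family is linked to were counted in lists, which were drawn up with earlier results of these libraries known. Of 14 genes of T cell quiescence and recirculation, the state in which naive and central T cells circulate through lymph nodes, 6 were called higher in SDLN Tregs (among them Il7r, Tcf7, Lef1, Bach2 and Satb1) and 1 in skin Tregs (Btg2), beside 45.3% and 1.04% of all genes tested. Tcf7, which encodes a transcription factor of naive and memory T cells, was at 0 counts in each skin library and at 263 ± 60.7 CPM in SDLN (edgeR adjusted p 0.00606). Il7r, the receptor for the survival cytokine IL-7, had 0, 0 and 2 counts in skin and 93.2 ± 23.0 CPM in SDLN (edgeR adjusted p 0.0175). Btg2, an antiproliferative gene, had a level of 935 ± 679 CPM in skin with 254 ± 17.8 CPM for SDLN (log2 fold change 1.69, SE 0.455, edgeR adjusted p 0.0241). S1pr1, the receptor for exit from tissues, had 71, 3149 and 0 counts in skin and 410 ± 81.4 CPM in SDLN, and did not pass (edgeR adjusted p 0.646). Neither did Ccr7, the chemokine receptor for entry into lymph nodes, with 859, 2401 and 1 counts in skin and 224 ± 12.3 CPM in SDLN (edgeR adjusted p 0.866), nor Btg1, a relative of Btg2, whose level was 1209 ± 557 CPM for skin and 379 ± 131 CPM for SDLN (edgeR adjusted p 0.0774). The median log2 fold change of the 14 genes was -1.71. Of the 6 SDLN calls, 5 were genes at the floor in all skin libraries, the exception being Lef1 with 4 counts in skin library C.

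Gimap proteins have been studied together with the BCL-2 family, which sets the threshold for mitochondrial cell death. Of its 10 genes, 4 were called higher in SDLN Tregs, the survival gene Bcl2 and the death-promoting Bak1, Bad and Bbc3, all of them at the floor in all skin libraries, which makes 4 of 10 where 45.3% of all tested genes were called in this direction. Bcl2 had 0 counts in each skin library and 113 ± 17.9 CPM in SDLN (edgeR adjusted p 0.0117). The 1 gene called higher in skin, beside 1.04% of all tested genes, was Pmaip1, which encodes the death-promoting NOXA. Pmaip1 had 5442, 1684 and 6314 counts in skin libraries A, B and C (765 ± 657 CPM). Its SDLN level was 55.1 ± 10.3 CPM (log2 fold change 3.64, SE 0.862, edgeR adjusted p 0.0157). Mcl1, a survival gene, was at 417 ± 120 against 116 ± 13.2 CPM and did not pass (edgeR adjusted p 0.0575), nor did Bcl2l1, which had 0 counts in skin library A (adjusted p 0.970). The median of the 10 was -2.68.

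The 5 ATG8 genes, whose products coat autophagosomes, include the Gimap6 partner Gabarapl2. Of these 5, 1 was called higher in SDLN, beside 45.3% of all tested genes. It was Map1lc3a, at 5.93 ± 2.03 CPM in SDLN and with at most 1 count in skin (edgeR adjusted p 0.00322). Gabarapl2 had 513, 608 and 0 counts in skin and 70.6 ± 3.62 CPM in SDLN (edgeR adjusted p 0.945). Gimap6 and Gabarapl2 were thus over the floor together in skin library B alone. Among other GTPases, 1 of 9 tested septins was called higher in SDLN, beside 45.3% of all tested genes. This was Sept5, at 1.10 ± 0.343 CPM in SDLN. The abundant Sept1, Sept2, Sept7 and Sept9 were over the floor in all skin libraries and were not called. Of 15 interferon-inducible GTPases, 4 were called higher in SDLN, beside the same 45.3% (Irgm1, Iigp1, Tgtp1 and Gbp5), each with at most 1 count in any skin library, and Igtp, at 404 ± 96.9 against 480 ± 37.6 CPM, was over the floor in every library (edgeR adjusted p 0.835). Medians of these lists were -0.51 for ATG8 genes, -1.05 for septins and -0.51 for interferon-inducible GTPases, beside -2.21 over all genes tested. Setting genes at the floor at their bound left the medians of these lists, and of the 2 lists before them, at the same values and moved the median over all genes tested to -1.29.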

How the data were processed

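RNA of 6 samples of sorted Tregs, 3 of skin and 3 of SDLN, was sequenced as 150 bp paired-end reads. The deposited file holds raw, whole-number counts for Ensembl genes. According to the methods, the authors trimmed reads with Trimmomatic 0.36, mapped them to GRCm38 with STAR 2.5.2b and counted unique exon reads per gene with featureCounts (Subread 1.5.2). The annotation release, strand setting and handling of duplicates are not given in the sources used here, and no molecular identifiers are described. Reads on exons that genes share may therefore be lost or assigned to either gene.

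Symbols and positions were taken from GENCODE M21 (GRCm38), which named 49056 of 49315 genes, and upstream sequences from RefSeq (GRCm38.p6), which held all 8 Gimap genes. CPM is relative to the library total, and RPKM divides it by the union of annotated exons. Counts were tested with edgeR 4.0.16 in R 4.3.3 (filterByExpr, TMM, robust glmQLFit, glmQLFTest, tissue as the only term, all 6 libraries), adjusted with the Benjamini-Hochberg method over 13572 genes at 0.05. The script was tested on simulated data. SE was derived from the F statistic. The methods state no test for this comparison.

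Named genes are the 8 members, other genes with a Gimap symbol, protein-coding genes within 250 kb, the 5 genes nearest to Gimap4 or to the Gimap sum, and in each related list those called plus up to 4 of the highest mean. Results for some genes that the rule names are not reported here. The members and lists were chosen with earlier results of these data known. Nothing in the labels says that the samples of a group were separate litters or days, so p-values measure the spread between these pools. Alternatives were other scalings, DESeq2 1.42.0, limma 3.58.1 (voom with quality weights), other filters, libraries drawn down to 3748669 counts, leaving out each library, and a block by column letter.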

Additional observations from a re-analysis of the deposited data

How the results depend on the processing

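Numbers in the titles could not be tied to the lettered columns. A fit with the column letter as a replicate block was added after the data were seen. No source says that a letter marks the same mice. The methods, which cover both tissues, give 3 samples in total, so a pool may have yielded both a skin and an SDLN library. Deviations of same-letter libraries from their group means correlated at 0.046, -0.010 and 0.091 (A, B and C, over 13572 genes). Those of different letters correlated at -0.082 to 0.051. These values cannot decide on pairing, because 5878 of the genes were at the floor in every skin library. Since the pairs are not given, the main fit had no block, and the block by letter is an alternative only. With this block 61 genes were called higher in skin, 5633 in SDLN and 3 Gimap genes in SDLN (Gimap3, Gimap4 and Gimap7, with an adjusted p of 0.0643 for Gimap8). The log2 fold changes of the 8 Gimap genes were below 0 in all 112 values that 14 alternatives gave, the block included, and 102 kept their side of the threshold. Gimap4 was called in 14 of 14 alternatives, Gimap8 in 13 and Gimap7 in 12, whose call was lost without SDLN library A (adjusted p 0.0564) or B (0.0599). The number of Gimap genes called higher in SDLN, 3 in the report, was 6 with limma voom (Gimap3, Gimap5 and Gimap9 added). That fit called 7192 of all 13572 genes higher in SDLN. The number was 2 to 5 when single libraries were left out. It was 5 without skin library B (Gimap3 and Gimap5 added), where 7787 of 15927 genes were called in this direction. It was 4 without skin library A (Gimap6 added), where 6770 of 15914 were. Without SDLN library A or B it was 2, where 5118 of 12598 and 4983 of 12429 genes were called. Gimap1 was called in 0 of 14 (adjusted p 0.0654 to 0.920). With at least 10 counts in every library no Gimap gene could be tested.

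Genes called higher in skin, 141 in the report, were 382 with DESeq2, 77 with no filter and 81 with a minimum of 10 counts in each library, and 71 to 324 when single libraries were left out (324 without skin library A, and 71, 77 and 81 without the first, second and last SDLN library). Genes called higher in SDLN, 6142 in the report, were 9 with at least 10 counts (1396 tested), 4027 after drawing down (10417 tested) and 4983 to 7787 when single libraries were left out. Both the minimum of 10 counts and drawing down left fewer genes to test. The cause of the other shifts was not tested. The summed Gimap level in skin as a percent of SDLN, 10.62, was 11.66 with TMM-scaled CPM, 10.63 after drawing down, 13.12 without Gimap4 and 4.376 to 15.93 when single libraries were left out. Gimap1 in SDLN Tregs moved to 188.5 RPKM when all its counts were divided by the unshared exon length.

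Depth sets a limit on the lowest values. In skin library A, 0 counts allow up to 0.800 CPM, and without molecular identifiers the number of molecules behind a high count is unknown.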

Other observations

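The genes nearest to the summed Gimap level over the 6 libraries, by the same Euclidean distance of log2(CPM + 1), were Eif4g2 (2.34), Eef2 (2.59), Sh2d2a (3.26), Jak1 (3.27) and Lcp2 (3.32). Eif4g2 and Eef2 serve translation, Sh2d2a and Lcp2 encode adaptors of T cell receptor signalling, and Jak1 encodes a kinase of cytokine receptors. All 5 were at the floor in skin library A, with 1, 3, 0, 0 and 0 counts in that order, and over it in every other library. Lcp2 had 7617 and 2289 counts in skin libraries B and C and 751 ± 88.0 CPM in SDLN Tregs (SD, n = 3). Jak1 had 3969 and 6859 counts in skin libraries B and C and 983 ± 217 CPM in SDLN Tregs. Among the 5, the higher skin CPM was in library B for Eif4g2, Eef2 and Lcp2, as for the Gimap sum, and in library C for Jak1, while Sh2d2a was at 294.3 and 294.8 CPM.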
